A study of Rattus norvegicus with 4 samples.

Results

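The genes described here encode the machinery that builds branched actin filaments in phagocytic cells. They are Actb, the 6 Arp2/3 complex genes Actr2, Actr3, Arpc1b, Arpc2, Arpc3 and Arpc5, and the regulators Pfn1, Cfl1 and Coro1a. The 10 genes were listed by function, and their 11 probes were found through the RefSeq accession printed with each spot. They belong to 16581 named genes and 45598 probes on the array. RNA came from NR8383, an established rat alveolar macrophage line grown from lung lavage of a normal rat, and the labels describe the cells as being at 20 passages. All 4 samples analysed were cultures kept for 4 h with the pristine single-walled carbon nanotubes NRCWE055, dosed at 11 cm2/cm2, and they form a single exposed group whose members the design text calls biological replicates. For replicates 2, 3 and 4 the source names give NRCWE056, NRCWE057 and NRCWE058, a different nanotube each, whereas the titles give NRCWE055 and were followed. If the source names held, the SDs below would be spreads between nanotubes and not between replicates. Unexposed cultures, although part of the design, were not analysed here. No value therefore shows a response to the nanotubes, and uptake of particles was not measured. The question addressed is which actin assembly genes were measurable in exposed macrophages and how closely the cultures resembled one another in them.

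Actin filaments push the macrophage membrane around a particle. New filaments branch from existing ones at the Arp2/3 complex, in which the actin-related proteins encoded by Actr2 and Actr3 form the seed of the branch and the ARPC subunits hold it to the mother filament. Profilin (Pfn1) delivers actin monomers to growing ends, cofilin (Cfl1) severs old filaments so that monomers return to the pool, and coronin 1A (Coro1a), found mainly in blood cells, binds filaments and the Arp2/3 complex and coats young phagosomes. The complex is switched on by WASP and WAVE proteins, which answer to the small GTPases Cdc42 and Rac.

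Detection set the frame for these genes. A probe was called detected where most of its usable spots were flagged as well above background, and all 10 genes were detected on each of the 4 arrays, beside 52.4% of named genes. A share of all genes is only a frame here, because the genes were chosen for a role that most cells need. Macrophage markers were detected for 10 of 10 measured genes, among them Cd68, Csf1r, Spi1 and Ptprc. Markers of muscle, fibroblasts, lung epithelium, lymphocytes and neutrophils were detected on all arrays for 3 of 25 measured genes, which were Cd3d, S100a8 and the muscle myosin light chain Myl11. The 75th percentile signal to which each array was scaled was 1756, 2631, 2861 and 1873 for replicates 1 to 4, and no spot was saturated on any array.

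Promoters of the Arp2/3 genes are printed first because they share letters that the choice of genes did not use. RefSeq promoters of build GRCr8, reaching from 250 bases before to 50 bases after the gene start, were matched for 9 of the 10 genes, and Actb had no entry. The letters GGAAGT, found in sites of ETS family factors, were sought on both strands in a search chosen after these sequences had been read. They stood in 8 of 9 promoters, in all 6 of the Arp2/3 genes, beside 22.6% of all 33469 promoters and 29.3% of the 7709 promoters of detected genes. Coro1a was the gene without them. Of 3 further Arp2/3 subunits or homologs with a promoter, Arpc4 and Arpc5l held them and Actr3b did not. The GC box letters GGGCGG, bound by SP1 family factors, stood in 9 of 9 promoters, beside 33.1% of all promoters and 61.1% of those of detected genes. TATAAA stood in 0 of 9, beside 14.2% and 7.33%, and no CArG box, the site of serum response factor, was found in the 9 promoters, beside 1.64% of all. The promoter of Actg1, the gene of cytoplasmic gamma-actin, held 1 CArG box. A match in letters is a description and shows no binding.

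The windows below run 5′ to 3′ on the gene's strand, from 100 bases before to 20 bases after the gene start, with GGAAGT or its reverse complement in capitals. They are the Arp2/3 members in the order of their roles, followed by Arpc4.
Actr2 (GRCr8, chr14:98535073-98535192, minus strand): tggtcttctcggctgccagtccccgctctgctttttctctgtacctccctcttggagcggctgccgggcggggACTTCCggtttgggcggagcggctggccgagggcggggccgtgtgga
Actr3 (GRCr8, chr13:39396490-39396609, minus strand): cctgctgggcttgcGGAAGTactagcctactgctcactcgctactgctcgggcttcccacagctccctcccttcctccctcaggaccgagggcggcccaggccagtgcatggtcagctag
Arpc1b (GRCr8, chr12:14609469-14609588, minus strand): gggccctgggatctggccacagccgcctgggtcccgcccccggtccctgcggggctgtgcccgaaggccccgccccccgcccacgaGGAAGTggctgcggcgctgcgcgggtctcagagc
Arpc2 (GRCr8, chr9:83269835-83269954, plus strand): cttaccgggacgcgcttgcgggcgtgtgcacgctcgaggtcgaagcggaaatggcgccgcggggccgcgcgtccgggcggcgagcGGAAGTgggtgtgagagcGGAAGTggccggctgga
Arpc3 (GRCr8, chr12:39847417-39847536, minus strand): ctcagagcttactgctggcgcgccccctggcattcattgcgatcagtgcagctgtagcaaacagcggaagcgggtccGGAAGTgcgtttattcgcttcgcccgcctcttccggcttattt
Arpc5 (GRCr8, chr13:67454279-67454398, plus strand): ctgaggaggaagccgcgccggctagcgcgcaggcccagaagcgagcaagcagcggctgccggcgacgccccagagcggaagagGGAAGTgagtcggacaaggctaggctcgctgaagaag
Arpc4 (GRCr8, chr4:148077799-148077918, plus strand): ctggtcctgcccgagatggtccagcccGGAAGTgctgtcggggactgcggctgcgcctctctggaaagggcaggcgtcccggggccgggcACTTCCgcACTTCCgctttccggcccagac
The capitals began 14 bases before the start in Arpc1b, 17 before it in Arpc5, 23 before it in Arpc3 and 27 before it in Actr2. Actr3 carried them farther out, at 86 bases before the start. Arpc2 held 2 copies, the first of them 15 bases before the start and the other just inside the gene. Arpc4 held 3 copies, at 73, 10 and 2 bases before the start.

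Signals of the Arp2/3 genes are given first as the processed signal of each array, an intensity that still carries the array's overall brightness, and then as the log2 level relative to the 75th percentile of that array. A probe's brightness depends on its sequence, so levels of different genes were not compared, and a gap between probes of a gene is given only to show how far they disagree. Arpc1b, a subunit of the complex that contacts its activators, had signals of 14660, 21148, 23947 and 15471 on replicates 1 to 4. The brighter arrays 2 and 3 gave the higher signals. After scaling, its levels were 3.06, 3.01, 3.07 and 3.05, a mean of 3.05 ± 0.03 (SD, n = 4) with the highest and lowest arrays 1.04-fold apart. Arpc3, a small structural subunit, had signals of 56438, 87450, 90999 and 60222 and levels of 5.01, 5.05, 4.99 and 5.01, with a mean of 5.01 ± 0.03 (SD, n = 4). Arpc5, a subunit that joins the ARPC core to Arp2, was measured by a pair of probes. The probe printed 10 times had levels of 3.45, 3.51, 3.46 and 3.51, and the probe printed once per array 0.50, 0.43, 0.50 and 0.61. The pair lay 2.97 ± 0.08 (SD, n = 4) apart on the log2 scale, by nearly the same amount on each array, and their mean gave the gene a level of 2.00 ± 0.04 (SD, n = 4). These 3 genes had the lowest SDs among the 10. In bulk RNA such as this, fewer cells with a transcript and less of it per cell cannot be told apart.

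The other Arp2/3 members spread more. Actr2, the gene of the Arp2 protein, had signals of 3598, 5008, 5718 and 4938 and levels of 1.04, 0.93, 1.0 and 1.40, a mean of 1.09 ± 0.21 (SD, n = 4). Replicate 4 stood above the other arrays, 1.38-fold over the lowest, and this was the widest range of the 10 genes. Without replicate 4 the SD of Actr2 fell to 0.0524, and Pfn1 then had the largest SD, at 0.139. Actr3, the gene of the Arp3 protein, had levels of 1.90, 2.09, 2.01 and 2.15, with a mean of 2.04 ± 0.11 (SD, n = 4). Arpc2, the subunit that forms the backbone of the complex with Arpc4, had levels of 0.79, 1.02, 0.96 and 1.1, with a mean of 0.97 ± 0.13 (SD, n = 4). In both, replicate 1 was the lowest array and replicate 4 the highest. The probes of Actr2 and Arpc2 were printed once per array and that of Actr3 2 times, whereas Arpc1b, Arpc3 and 1 probe of Arpc5 were printed 10 times, so a single spot weighs more in the former. The spot-to-spot SD within an array was 0.13 for Arpc1b, 0.08 for Arpc3 and 0.06 for Arpc5, and its median was 0.09 over 1038 detected probes printed 10 times. The part of spot noise in the spread of Actr2 and Arpc2 was not tested.

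**Figure D1:**
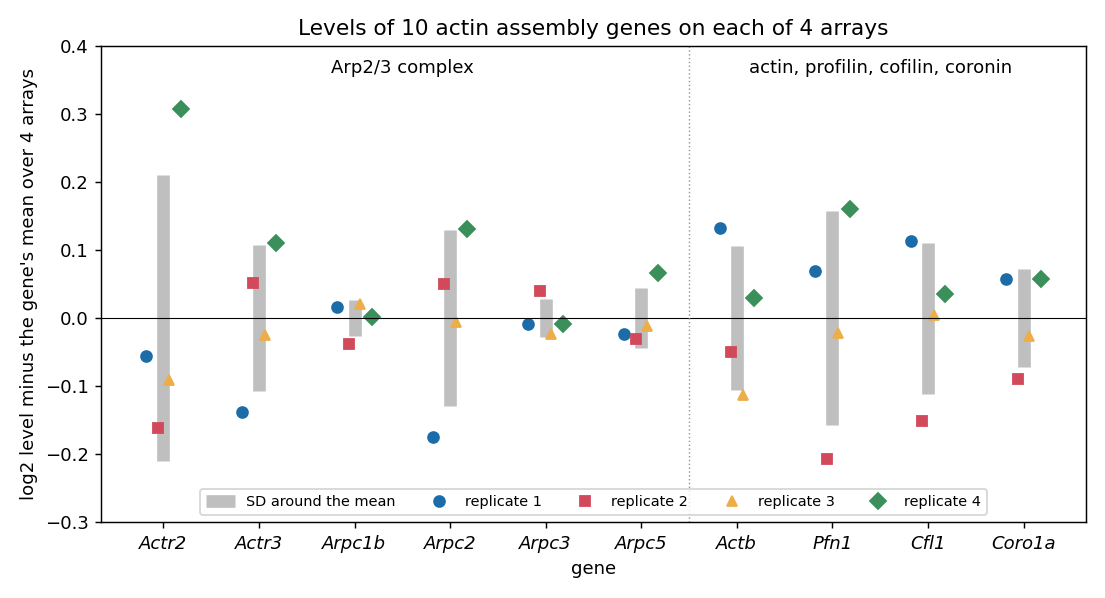
Log2 level of each of the 10 genes on each array, less the gene's own mean (y axis), with the genes in order of role on the x axis, a coloured symbol per replicate and a grey bar for ± 1 SD over the 4 arrays. Arpc1b, Arpc3 and Arpc5 lie within 0.10 from lowest to highest array, and replicate 4 of Actr2 stands farthest from its gene's mean.

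Among the actin-handling genes, Actb, the gene of cytoplasmic beta-actin, had signals of 107981, 142590, 148314 and 107267 and levels of 5.94, 5.76, 5.70 and 5.84, with a mean of 5.81 ± 0.11 (SD, n = 4). Replicates 1 and 4, the arrays with the lower 75th percentile signals, lay above replicates 2 and 3. Pfn1 had levels of 2.55, 2.27, 2.46 and 2.64, with a mean of 2.48 ± 0.16 (SD, n = 4), and Cfl1 had levels of -0.96, -1.22, -1.07 and -1.04, with a mean of -1.07 ± 0.11 (SD, n = 4). Coro1a had levels of 2.55, 2.41, 2.47 and 2.55, with a mean of 2.49 ± 0.07 (SD, n = 4). Replicate 2 was the lowest array for Pfn1, Cfl1 and Coro1a. The Cfl1 spots were 24.8 to 35.8 times as bright as their local background, and the Actb spots 2344 to 3332 times. The RefSeq table names 11 pseudogenes after Cfl1 and 10 after Actb, against 2 after Arpc1b and 1 each after Actr2 and Actr3. Probe sequences were not used here, so signal from transcripts of such copies could not be told apart from that of the gene.

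Spread over the arrays was near that of other genes. The median SD of the 10 genes was 0.107 on the log2 scale, beside 0.0926 over all 8685 detected genes, whose lower and upper quartiles were 0.0602 and 0.147. SDs ranged from 0.03 in Arpc1b to 0.21 in Actr2, and 6 of the 10 lay above the median of all genes. Without replicate 1 the median fell to 0.0719 and 3 of the 10 lay above the median of all genes. No gene of the 10 spanned 2-fold, beside 1.11% of detected genes. Replicate 4 was the highest array for 6 of the 10, and it was the highest for 29.4% of all detected genes. Replicate 2 was the lowest for 6 of the 10 and for 24.9% of all, but for 3 of the 10 after normexp background correction and for 4 of the 10 with the 75th percentile taken over all probes. Genes measured on the same arrays share the array's scaling, so these counts describe the arrays as much as the genes.

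**Figure D2:**
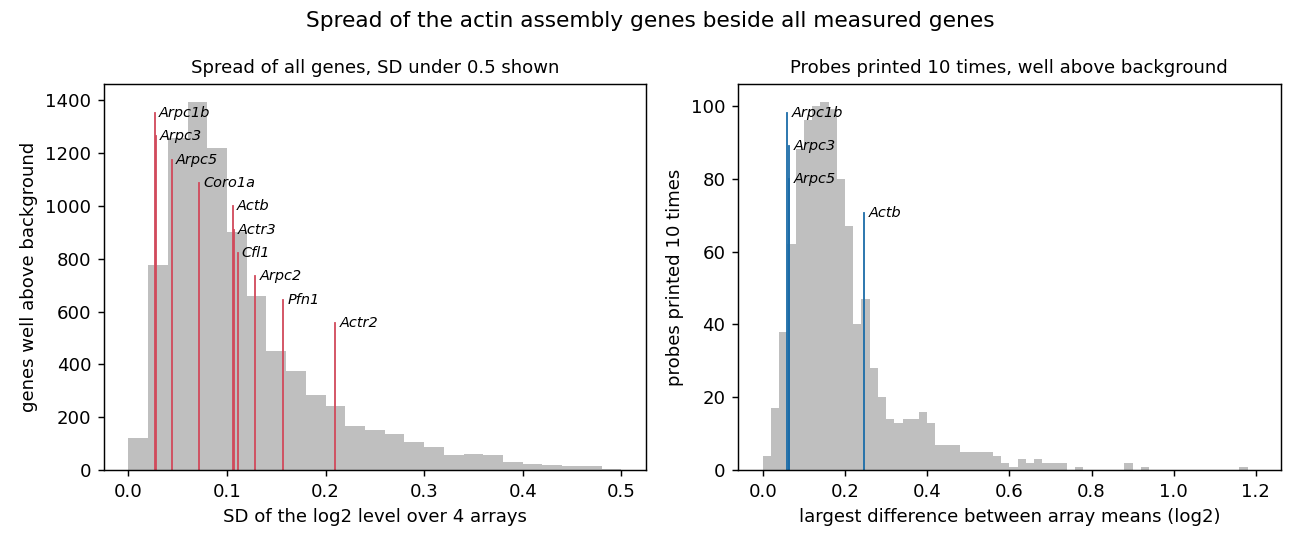
Left, SD over 4 arrays of the log2 level of detected genes (grey bars, number of genes; values under 0.5 are drawn) with red lines at the 10 actin assembly genes. Right, largest difference between array means for 1038 detected probes printed 10 times (grey bars) with blue lines at the 4 member probes among them: Arpc1b, Arpc3 and Arpc5 lie at the low end and Actb at 0.25.

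Replicate spots allowed a test of whether arrays differed beyond spot noise. With 1 array per culture this sets cultures, labelling and scanning together against the spread of spots within an array. In limma's moderated F test, fitted over 2319 probes printed at least 2 times with Benjamini-Hochberg adjustment, 44.3% of probes differed between arrays, and 1 of 6 probes of the actin assembly genes did. That probe was Actb, whose array means spanned 0.25, or 1.19-fold (limma adjusted p = 1.16e-04). Its call was lost under quantile normalization (limma adjusted p = 0.200), where replicate 3 became its highest array and Arpc3 was called in its place (limma adjusted p = 0.0111).

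The Arp2/3 probes printed 10 times differed little. Their array means spanned 0.06 in Arpc1b (limma adjusted p = 0.802), 0.06 in Arpc3 (limma adjusted p = 0.450) and 0.06 in Arpc5 (limma adjusted p = 0.134), and none was called, beside 67.3% of all 1350 probes printed as often. Adding the 95% confidence half-width of a difference between 2 arrays gives a rough upper limit on these spans. It was 0.18 for Arpc1b, 0.14 for Arpc3 and 0.12 for Arpc5. The half-width holds for a pair of arrays fixed in advance, not for the largest of several differences, so this is no 95% limit. Of the 1038 detected probes printed 10 times, 5.20% had a smaller span than Arpc1b, 6.55% than Arpc3, 6.65% than Arpc5 and 77.6% than Actb. Among probes printed 2 times, Actr3 spanned 0.25 (limma adjusted p = 0.0587) and Pfn1 0.37 (limma adjusted p = 0.0916). Neither was called, beside 12.2% of all 969 probes printed as often and 5.82% of the 704 detected ones. With so few spots the same rough limit for Pfn1 was 0.65.

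The same Arpc1b spot was low on every array. On each array the lowest of the 10 Arpc1b spots was the one in row 384 and column 160, at -0.26, -0.33, -0.31 and -0.41 from the array's mean on replicates 1 to 4. Without it the span of Arpc1b was 0.06 as before, and the spot SD within an array ran from 0.05 to 0.09. The Arpc1b spot SD of 0.13, its adjusted p in the first test and its limit of 0.18 include the low spot. Whether that spot's place or its own printing goes with its low signal was not tested. Because a spot keeps its place within each array, the test was repeated with that place as a block, a choice made after this was seen. It called 63.3% of all probes and 4 of the 6 here, which were Actb (limma adjusted p = 1.53e-10), Actr3 (limma adjusted p = 0.0353), Arpc3 (limma adjusted p = 0.0293) and Arpc5 (limma adjusted p = 0.00596). Arpc1b (limma adjusted p = 0.0594) and Pfn1 (limma adjusted p = 0.106) were not called. The Arp2/3 spans are therefore small in size, and whether they pass the test depends on how spot noise is counted.

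**Figure D3:**
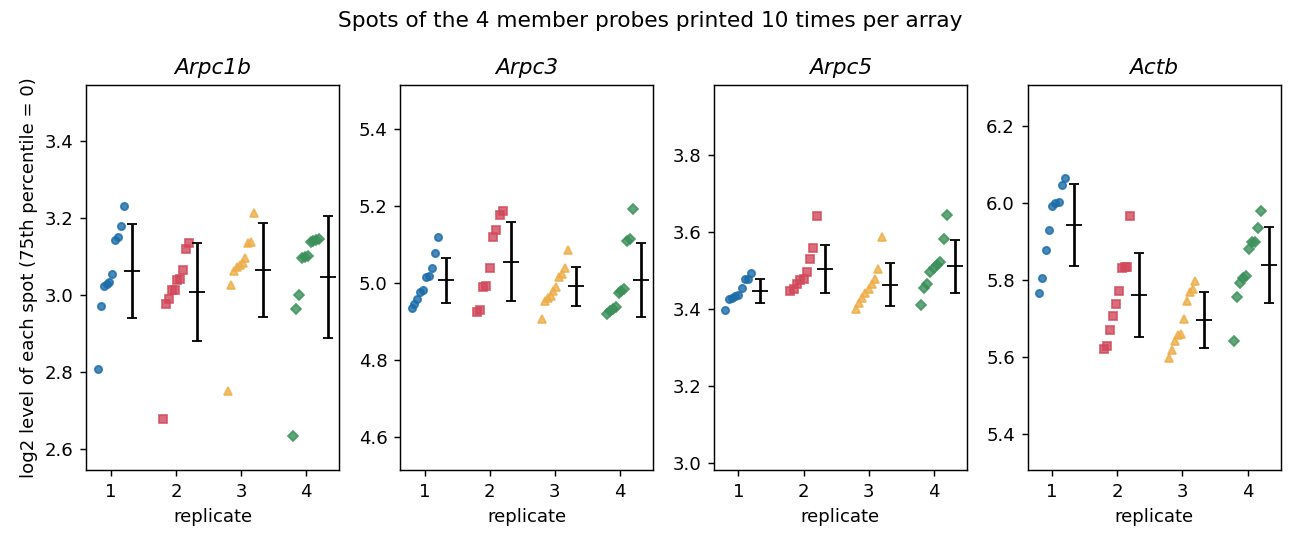
Log2 level of every usable spot (y axis, the array's 75th percentile at 0) of the 4 probes printed 10 times, by replicate (x axis), with a black bar for the mean ± SD of the spots. Each panel spans 1 log2 unit. The spots of Arpc1b, Arpc3 and Arpc5 overlap across arrays, 1 low Arpc1b spot recurs on every array, and Actb is lower on replicates 2 and 3.

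Other actin genes were read beside Actb. Of 6 further actins, 4 were detected. Actg1 had levels of 5.39, 4.84, 4.77 and 5.11, with a mean of 5.03 ± 0.28 (SD, n = 4). Its replicates 1 and 4 lay above replicates 2 and 3, as in Actb. Actc1, the cardiac muscle actin, had levels of -0.37, -1.02, -1.05 and -0.54, with a mean of -0.74 ± 0.34 (SD, n = 4), in the same array order. Tmsb4x, which encodes the monomer-binding peptide thymosin beta 4, had levels of 5.97, 5.75, 5.69 and 5.97, again with replicates 1 and 4 above the others. The 75th percentile signals used for scaling ran the other way, at 1756 and 1873 on replicates 1 and 4. They were 2631 and 2861 on replicates 2 and 3. Differences between cultures cannot be told apart here from array brightness and its scaling. Acta2 and Actg2 of smooth muscle were detected at -5.60 ± 0.22 and -4.18 ± 0.12 (SD, n = 4), and neither Acta1 nor Actbl2 was well above background anywhere. Under quantile normalization the SD of Actb was 0.05 in place of 0.11 and that of Tmsb4x 0.03 in place of 0.14, and their array order changed. The SD of Actg1 was then 0.22 and that of Actc1 0.34, with replicate 1 still highest and replicate 3 lowest in both. Of 6 measured muscle markers Myl11 was detected on all arrays, Ckm and Myh1 on 1 array each, and Myh11, Cnn1 and Des on none. Which actin transcript an actin probe bound was not tested, because probe sequences were not used here.

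**Figure D4:**
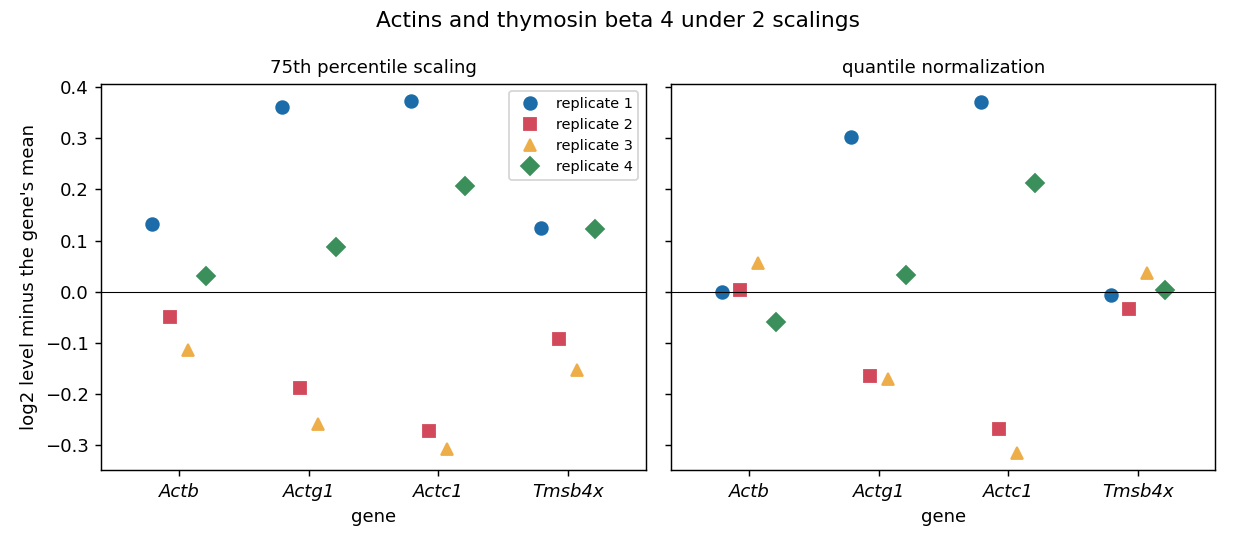
Log2 level less the gene's mean (y axis) of Actb, Actg1, Actc1 and Tmsb4x (x axis), with a coloured symbol per replicate, scaled to the 75th percentile of detected probes (left) or after quantile normalization (right). Replicates 1 and 4 lie above replicates 2 and 3 in all 4 genes on the left, and in Actg1 and Actc1 on the right.

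The wider actin pathway was detected for 76 of 93 measured genes, or 81.7%, beside 52.4% of named genes. All 4 further Arp2/3 subunits and homologs were detected. Arpc4 was at 0.39 ± 0.07, Arpc1a, the close homolog of Arpc1b, at -0.79 ± 0.07, Arpc5l, the homolog of Arpc5, at 2.70 ± 0.05, and Actr3b at -5.60 ± 0.06 (SD, n = 4). Their SDs were all under the median of detected genes. Actr3b lay toward the floor, as the lowest level detected ran from -7.49 on replicate 3 to -6.81 on replicate 1. WASP and WAVE nucleation promoters were detected for 11 of 14. Wasl, the widely expressed relative of WASP, was at -3.48 ± 0.06 and Nckap1l, the blood cell scaffold of the WAVE complex, at -1.15 ± 0.06 (SD, n = 4). Its relative outside the blood, Nckap1, and Wasf1 were detected on none of the arrays. Wasf2 was detected on 3 arrays. No probe was matched to Was. Of the switches upstream of these promoters, Rac1 was detected at 0.94 ± 0.04, the blood cell form Rac2 at -0.16 ± 0.10 and Cdc42 at 3.09 ± 0.09 (SD, n = 4).

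Regulators that act on filaments and monomers were detected less evenly. Of the cofilin family and severing genes, 4 of 9 were detected, with the filament-severing gelsolin Gsn at 2.89 ± 0.10 and destrin, Dstn, at 0.14 ± 0.12 (SD, n = 4), although the 3 Dstn probes spanned 5.23. Cfl2, the muscle cofilin, was detected on 3 arrays, and Scin, Vil1, Avil and Cap2 on none. All 7 measured kinases and phosphatases of cofilin were detected, among them LIM kinase 1, Limk1, at 2.35 ± 0.04 (SD, n = 4), and no probe was matched to Ssh1. Of monomer-binding genes, 4 of 7 were detected, and Pfn2, Pfn3 and Pfn4 were well above background on none of the arrays, so Pfn1 was the single profilin detected. Coronins other than Coro1a were detected for 4 of 5, with Coro1b at 2.07 ± 0.07 and Coro1c at 2.79 ± 0.09 (SD, n = 4), and Coro6 on 3 arrays. Filament end cappers were detected for 6 of 7, with Capza1 at -0.36 ± 0.13, Capzb at 1.47 ± 0.13 and the macrophage capper Capg at 5.11 ± 0.08 (SD, n = 4). Formins were detected for 5 of 5, with Diaph1 at -1.04 ± 0.09 (SD, n = 4) and its pair of probes 6.0 apart. Crosslinkers and myosins of the phagocytic cup were detected for 10 of 11, with the leukocyte plastin Lcp1 at 4.02 ± 0.11 (SD, n = 4), and inhibitors and branch regulators of the complex for 5 of 6.

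The pathway genes with the largest SDs were Actc1, Pdxp, Tesk2, Actg1 and Dock1. Pdxp, a phosphatase that can act on cofilin, was at -2.28 ± 0.31, Tesk2, a cofilin kinase, at -5.86 ± 0.30 and Dock1, a Rac exchange factor, at -5.46 ± 0.28 (SD, n = 4). Tesk2 and Dock1 lay toward the floor, as did Actr3b and Acta2. The lowest level detected ran from -7.49 on replicate 3 to -6.81 on replicate 1. The median SD of detected pathway genes was 0.0883. The test over replicate spots held 24 pathway probes, printed 10 or 2 times. Over all probes, 67.3% of those printed 10 times and 12.2% of those printed 2 times differed. Probes of Cap2, Pfn2 and Wasf1 were called although these genes were detected on no array. Both tested probes of Tmsb10 were called too, and neither was the 1 of its 3 probes that all arrays detected. With all of these, 15 of the 24 differed between arrays, beside 44.3% of all. Apart from the Cap2 probe and a Dstn probe, those called were printed 10 times. Among them were Lcp1, spanning 0.26 (limma adjusted p = 3.49e-08), Capg, spanning 0.18 (limma adjusted p = 2.69e-06), and Rac2, spanning 0.21 (limma adjusted p = 8.68e-04).

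**Figure D5:**
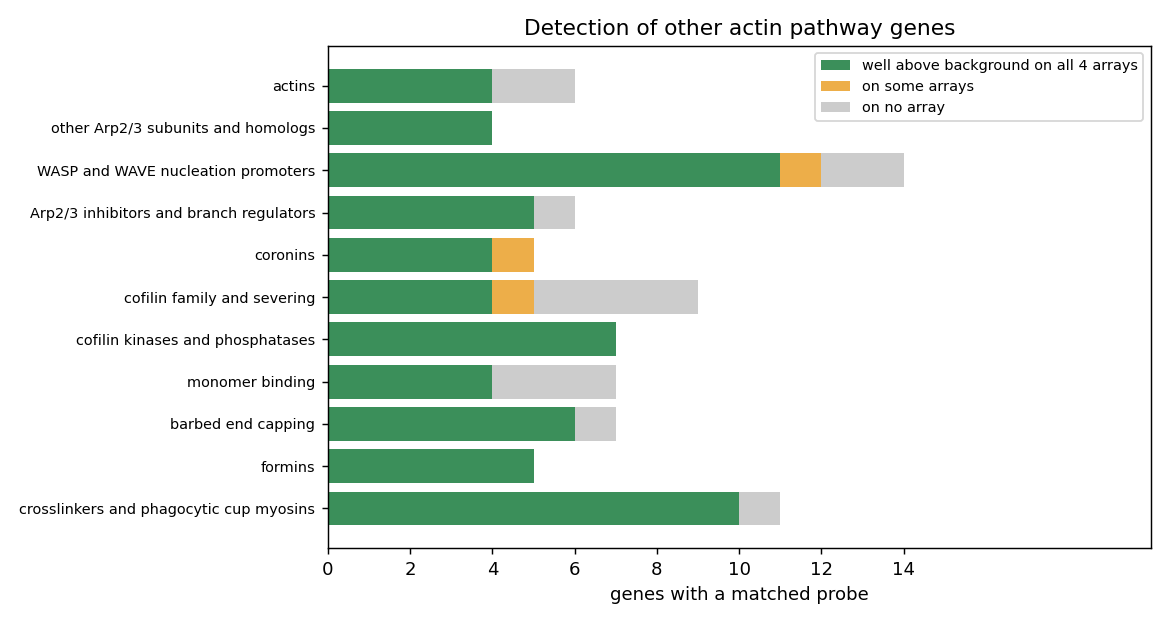
Number of measured genes (x axis) of 11 actin pathway lists (y axis) detected on all 4 arrays (green), on some arrays (orange) or on none (grey). Further Arp2/3 subunits, cofilin kinases and phosphatases, and formins were detected in full, and the cofilin family and severing list least, with 4 of 9.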

How the data were processed

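Total RNA of 4 exposed cultures was hybridised to 1-colour Agilent arrays, 1 per culture, on 1 slide read in 1 scan. Spots were quantified with Agilent's Feature Extraction software, version 11.0.1.1, per the file headers. Its processed signal, an intensity, was deposited after background subtraction and detrending within each array, per the file headers, with no normalization between arrays. Raw median intensities and flags of 0 or 1 are deposited beside it.

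Control spots and spots with outlier flags (427 to 714 per array) were left out, which left 45598 probes, and log2 signals were averaged over a probe's spots. Because 40.8% to 43.7% of probes were detected per array, each array was set to 0 at the 75th percentile of the 17807 probes that all arrays detected. SystematicName accessions were named through RefSeq for GRCr8, which named 21109 probes. The header gives another build, rn4, for the array design, so no coordinates of probes are given. A gene is the mean of its detected probes. Where the labels do not say how cultures were kept apart, p-values measure only spread between spots and arrays.

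A moderated F test of limma (version 3.58.1, run in R version 4.3.3) compared the arrays at a threshold of 0.05 and was tested on simulated data. Noise there was drawn apart for each spot and array, so no spot was kept low on every array as in Arpc1b. Files were read in R with the package data.table, and Python 3.11.15 with matplotlib 3.10.9 drew the figures. Number of arrays, 4, limits precision. The genes, pathway lists and alternatives were chosen with earlier results of these data known. Genes named were the 10 members, a fixed set of pathway genes, the 5 of those lists with the largest SD and those detected on some arrays. The count of 1 pathway list and 1 of its genes are not reported here, although the totals over all lists include them. A few others, such as relatives of Pfn1 and Nckap1l, were named after their values were seen. Alternatives were other scalings, normexp with an offset of 50 on median signals (the mean signal was not used here), a looser flag, other filters, the brightest probe, outlier spots kept, an unmoderated F test and leaving out each replicate.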

Additional observations from a re-analysis of the deposited data

Results flagged for a closer look

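Among the 36 gene series tested for a single array far from the other 3, 1 passed Dixon's test, where chance flags about 1 in 20, or 1.8 here. Nckap1l, the blood cell scaffold of the WAVE complex, was at -1.24 on replicate 1, against -1.13 to -1.12 on the others. None of the 10 actin assembly genes passed. The nearest were Arpc5, Actr2 and Arpc3, whose gap to the next array took 0.807, 0.773 and 0.757 of the gene's range.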

How the results depend on the processing

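The count of 6 member probes that differed between arrays, 1 as reported, was 3 with scaling to the 75th percentile of all probes (Actr3 and Arpc5 besides Actb), 2 with the unmoderated F test and 2 with only detected probes in the fit (Actr3 besides Actb in both) and 4 with the spot's place as a block, the last 2 of these chosen after seeing the data. It was 1 in each fit without 1 replicate and under median centring, normexp correction, quantile normalization and with outlier spots kept, and the probe called was Actb except under quantile normalization, where it was Arpc3. Over all probes the count of 1027 fell to 663 under quantile normalization. The median SD of the 10 genes lay between 0.0719 and 0.111 without each replicate in turn and between 0.0844 and 0.107 under the other alternatives. The number of the 10 with an SD above the median of all genes, 6 as reported, was 4 under quantile normalization and 0 once dim probes were kept in, which raised the all-gene median to 0.244. All 10 genes were detected under each alternative run, and pathway genes detected ran from 76 to 81. Levels are relative to a zero point: median centring and the 75th percentile of all probes moved all 10 by more than their SD. Normexp correction moved 8 of them, leaving out replicate 1 moved 5, leaving out replicate 4 moved 2, the brightest probe moved 1 (Arpc5), and quantile normalization, outlier spots kept and leaving out replicate 2 or 3 moved none. No paired analysis was possible because all samples belong to 1 group. Signal over background did not limit the 10 genes. Actr2, Arpc2, Cfl1 and Coro1a each have 1 spot per array and so were outside the test over replicate spots. The part of spot noise in their spread was not tested.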
